A study of Homo sapiens with 5 samples.

Results

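The genes described here are the TCF/LEF transcription factors and the proteins that tie them to beta-catenin, 7 genes of 60651 in the files. They were taken by gene symbol: TCF7, LEF1, TCF7L1 and TCF7L2, the transcription factors, and BCL9, BCL9L and PYGO2, the coactivators. Levels came from RNA sequencing of COLO 320DM, a human colorectal adenocarcinoma line. The USP17 siRNA libraries were siIDT, sino4 and siSMPLT, each carrying a differently named siRNA taken to target USP17, a deubiquitinase. The control siRNA libraries were siL2 and siNT, which carried non-silencing duplexes. The labels give no siRNA sequence, so whether the named siRNAs differ in sequence is not known. By its title and design, the study is about USP17 as a regulator of beta-catenin in this cancer. The labels give no other treatment, time or dose and do not say whether the 5 libraries are separate cultures. Each named siRNA has 1 library, so a p-value here reflects how the libraries of a group vary, part of which may be technical.

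In the canonical Wnt pathway, beta-catenin that escapes destruction enters the nucleus and binds TCF/LEF proteins, which hold the DNA through an HMG box. Without beta-catenin the TCF/LEF proteins recruit Groucho/TLE corepressors and keep target genes low. With it, BCL9 or BCL9L bridges beta-catenin to a Pygopus protein and target genes are switched on. In the intestinal epithelium TCF7L2 is the factor known for keeping the crypt stem cells, and LEF1 is known to be switched on in many colorectal cancers.

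The USP17 siRNA libraries held 31704821 to 32259474 reads in genes, and the control siRNA libraries 34320214 (siL2) and 36276143 (siNT). All 30 USP17L genes, the family that encodes USP17, had 0 reads on their own strand in every library, so the effect of the siRNAs on their target could not be measured. Of 11 colon epithelium markers, 6 (EPCAM, KRT8, KRT18, KRT20, CDX2 and CDH17) reached 1 TPM (transcript level scaled by length and depth) in every library. Their list summed to 1657 to 1715 TPM with USP17 siRNA and to 1965 to 2042 TPM with control siRNA, and most of that sum was CDX2 (1467 to 1515 TPM with USP17 siRNA and 1751 to 1846 TPM with control siRNA). The markers did not move together: by edgeR CDX2 was lower (log2 fold change -0.31, adjusted p = 0.0162), while CDH17 (0.88, adjusted p = 0.00285) and GPA33 (1.49, adjusted p = 0.0048), which stayed under 1 TPM in the controls, were higher. Of 9 neuroendocrine markers, ENO2 alone reached 1 TPM in every library and INSM1 was at 0. TCF7 and LEF1 are also T cell factors. Of 10 T lymphoid markers, PTPRC, CD4 and GATA3 reached 1 TPM in every library while CD3D and CD3E were at 0, with a list sum of 24.9 to 27.95 TPM with USP17 siRNA and 23.7 to 30.7 TPM with control siRNA. Of 6 fibroblast markers, COL1A1, COL3A1 and PDGFRB reached 1 TPM in every library and DCN was at 0, with sums of 14.7 to 19.8 TPM with USP17 siRNA and 18.7 to 21.6 TPM with control siRNA. The part of these lists in the results below was not tested.

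The sequences below show where a short sequence carried by the beta-catenin transcript is matched, in full or in part, among its partners. ATCACTC was named in an earlier analysis of these same libraries as a 7-base sequence whose carriers were lower in the USP17 siRNA libraries. Searched on the sense strand of the longest annotated 3' UTR of each coding gene, it occurred in 1347 of 19096 genes (7.05%), CTNNB1 among them and none of the 7 genes described here, which at that share says nothing particular of the 7. TCACTCA, which overlaps it, occurred in 11.2% of genes and neither in CTNNB1 nor in the 7. Both CTNNB1 and PYGO2 hold the shared core TCACTC, as 29.8% of genes do. A further 7-base sequence from that analysis, GATCATC, occurred in 5.73% of genes and, of the 7, in TCF7L1. Capitals mark the matched bases, and both windows of 30 bases are written 5' to 3' on the gene's strand (GENCODE 29, GRCh38).
CTNNB1, chr3:41240108-41240137, plus strand: actaattcataATCACTCtaattaattgta
PYGO2, chr1:154957104-154957133, minus strand: cctctcgctctcTCACTCcactactttttg
These matches describe the letters only, and whether they bear on any level was not tested.

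LEF1 gave most of the TCF/LEF mRNA in these cells. Among the 4 factors it made up 89.5%, 87.9% and 86.8% of the summed TPM in siIDT, sino4 and siSMPLT, and 89.2% and 86.8% in siL2 and siNT. TCF7L2 gave 5.59% to 7.19% with USP17 siRNA and 5.74% to 6.10% with control siRNA, and TCF7 gave 4.87% to 5.96% with USP17 siRNA and 5.10% to 7.05% with control siRNA. TCF7L1, which acts mainly as a repressor, gave under 0.07% in every library. These shares overlapped between the groups for all 4 factors. Among the coactivators the order was BCL9, PYGO2 and BCL9L in every library.

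Across all 7 genes the TPM order was LEF1, BCL9, PYGO2, TCF7L2, TCF7, BCL9L and TCF7L1 in 4 libraries, and siNT differed only in placing TCF7 above TCF7L2. Ranges of TCF7L2 (19.9 to 25.2 TPM) and TCF7 (18.2 to 23.0 TPM) overlapped over the 5 libraries. Within the USP17 siRNA libraries they did not, at 23.7 to 25.2 TPM for TCF7L2 and 20.6 to 22.3 TPM for TCF7. The controls disagreed on the order, and the difference between these neighbours was not tested. PYGO2 (26.2 to 29.3 TPM) lay above both, and BCL9 (33.0 to 44.2 TPM) above PYGO2.

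**Figure D1:**
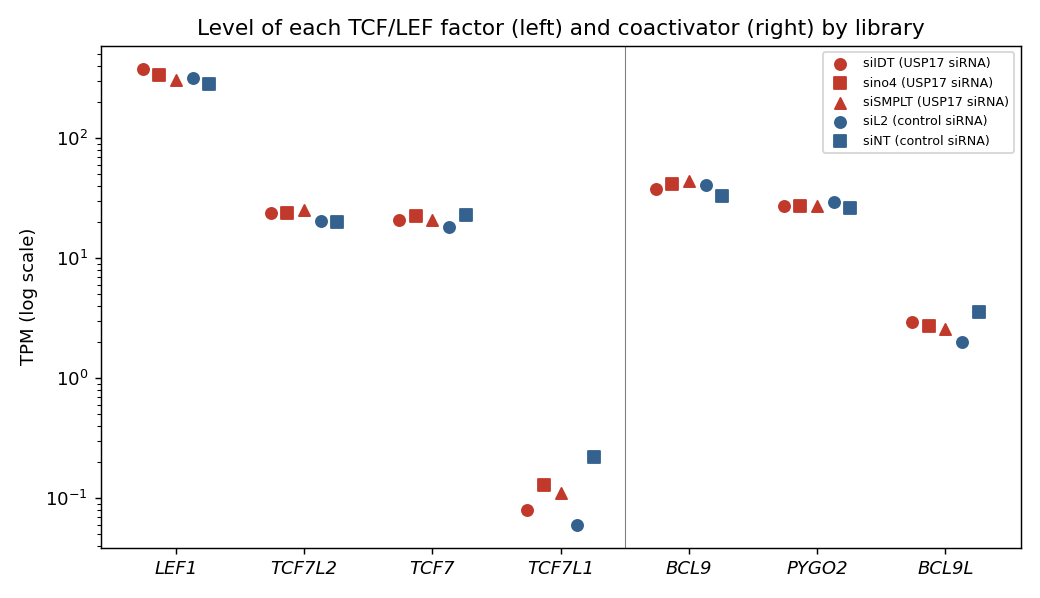
TPM (log scale) of the 4 TCF/LEF factors and 3 coactivators, with 1 point per library, USP17 siRNA in red and control siRNA in blue. LEF1 lies at 284 to 379 TPM and TCF7L1 at 0.06 to 0.22 TPM, and the TCF7L2 and TCF7 points share a range (19.9 to 25.2 and 18.2 to 23.0 TPM).

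None of the 7 genes passed the test between USP17 siRNA and control siRNA. TCF7L1 had too few reads to be tested, and the other 6 had adjusted p-values of 0.129 to 0.967 in edgeR's quasi-likelihood test (two-sided, Benjamini-Hochberg over all 16341 genes tested, threshold 0.05). Over all those genes 1710 passed, or 10.5%. At an unadjusted p under 0.05 there was 1 of the 6, BCL9, beside 28.9% of all genes tested. DESeq2's Wald test, which called 17.0% of the genes it gave an adjusted p, and limma-voom, which called 10.3%, also called 0 of the 6. The median log2 fold change of the 6 was 0.12, beside 0.005 over all genes tested, and their largest, 0.23, was a change of ordinary size here, where the median absolute value was 0.198. The 2 control libraries differed from each other by about as much, with a median absolute log2 difference of 0.192 between siNT and siL2. CPM (read counts scaled by depth and by TMM factors) did not overlap between the groups for LEF1, TCF7L2 and BCL9, or 3 of 6, beside 45.9% of all genes tested. In bulk RNA, fewer cells of a type and less RNA per cell cannot be told apart.

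LEF1 (chromosome 4, 108047545 to 108168956, minus strand, GRCh38), whose product is known in lymphocytes and as a Wnt target itself, had 448, 396.5 and 369.7 CPM in siIDT, sino4 and siSMPLT, against 367 and 337 CPM in siL2 and siNT. All 3 USP17 siRNA libraries lay above both controls, but siSMPLT stood only just above siL2, and siIDT was the highest. The group means were 404.8 ± 39.9 CPM (SD, n = 3) with USP17 siRNA and 352.1 ± 21.1 CPM (SD, n = 2) with control siRNA. The log2 fold change was 0.20 ± 0.09 (SE; adjusted p = 0.187, edgeR), with a 95% interval from 0.995-fold to 1.33-fold. By library it lay 0.35 (siIDT), 0.17 (sino4) and 0.07 (siSMPLT) above the controls' mean on the log2 CPM scale, while siNT lay 0.12 below siL2. On the TPM scale the groups overlapped.

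LEF1-AS1 (chromosome 4, 108167525 to 108256836, plus strand) starts within LEF1 on the opposite strand. It had 137, 108 and 96 reads in siIDT, sino4 and siSMPLT, against 92 and 61 in siL2 and siNT, so that it followed the same order of libraries as LEF1. Its log2 fold change of 0.67 ± 0.24 (SE) did not pass (adjusted p = 0.108, edgeR). It was 1.02 and passed without siL2 (adjusted p = 0.0297, edgeR), and was 0.39 without siNT (adjusted p = 0.29, edgeR), so its size rests on which control is used. The strands were counted apart: over LEF1-AS1 the other strand, which is that of LEF1, held 1046 to 1300 reads with USP17 siRNA and 1019 to 1060 with control siRNA.

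TCF7L2 (chromosome 10, 112950250 to 113167678, plus strand), the main TCF of the normal gut, had 56.1, 55.5 and 55.3 CPM in siIDT, sino4 and siSMPLT, against 51.2 and 52.6 CPM in siL2 and siNT. The groups did not overlap, the libraries within each lay close together, and the distance between them was small. The log2 fold change was 0.10 ± 0.07 (SE; adjusted p = 0.415, edgeR), with a 95% interval from 0.953-fold to 1.21-fold.

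On the TPM scale TCF7L2 stood further apart, at 23.7, 23.9 and 25.2 TPM in siIDT, sino4 and siSMPLT, against 20.5 and 19.9 TPM in siL2 and siNT. TPM divides reads by a transcript length that RSEM, the authors' quantifier, weights by how much of each transcript it assigns. That length was 3357, 3199 and 3059 bases in siIDT, sino4 and siSMPLT, against 3516 and 3617 bases in siL2 and siNT. The log2 ratio of group means was 0.26 for TPM and -0.15 for length, beside the 0.10 for reads. The gene has 30 annotated transcripts of 182 to 4136 bases, and the gene-level files do not show how reads were split among them. The difference in length itself was not tested. Length did not overlap between the groups in 23.0% of tested genes with 2 or more transcripts, and it both did not overlap and differed at least as much as for TCF7L2 in 5.81% of them, or in 2.35% of those with a mean of at least 1000 reads. Over TPM, limma on log2(TPM + 1) gave TCF7L2 a difference of 0.25 that did not pass (adjusted p = 0.125), where 2.12% of genes did.

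**Figure D2:**
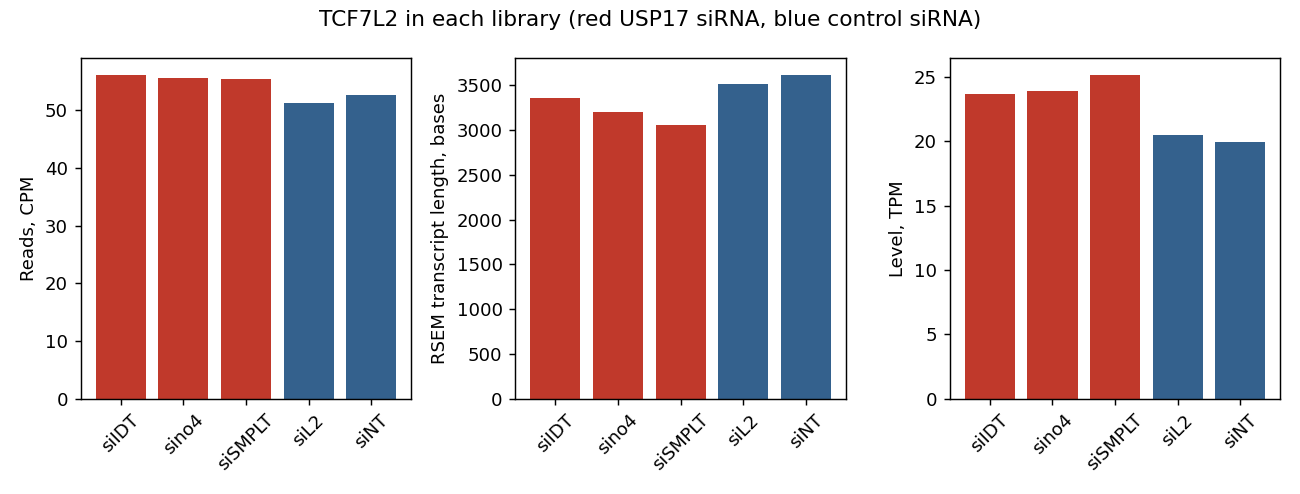
TCF7L2 in each library as reads (CPM), RSEM's weighted transcript length (bases) and level (TPM), with bars from 0, USP17 siRNA in red and control siRNA in blue. Reads span 51.2 to 56.1 CPM, while the length is 3059 to 3357 bases in the red libraries and 3516 to 3617 bases in the blue ones.

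TCF7 (chromosome 5, 134114711 to 134151865, plus strand), which can act as activator or, in a short form that lacks the beta-catenin binding end, as repressor, had 41.2, 45.7 and 42.4 CPM in siIDT, sino4 and siSMPLT, against 37.2 and 47.7 CPM in siL2 and siNT. The controls enclosed all 3 USP17 siRNA libraries. The log2 fold change was 0.02 ± 0.12 (SE; adjusted p = 0.923, edgeR), with a 95% interval from 0.847-fold to 1.22-fold, and it was -0.15 without siL2 and 0.21 without siNT. Its RSEM length was 2879 to 2906 bases with USP17 siRNA and 2909 to 2921 bases with control siRNA, a narrower distance than for TCF7L2.

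TCF7L1 (chromosome 2, 85133410 to 85310388, plus strand) had 5, 8 and 9 reads in siIDT, sino4 and siSMPLT, against 4 and 15 reads in siL2 and siNT. The groups overlapped, and the controls enclosed the USP17 siRNA libraries. The filter on low counts left the gene out of the test. With no filter its log2 fold change was -0.26 ± 0.55 (SE; adjusted p = 0.841, edgeR).

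BCL9 (chromosome 1, 147541412 to 147626216, plus strand), the scaffold that binds beta-catenin and Pygopus, had the highest TPM among BCL9, PYGO2 and BCL9L. It had 148, 156 and 165 CPM in siIDT, sino4 and siSMPLT, against 143 and 124 CPM in siL2 and siNT. All 3 USP17 siRNA libraries lay above both controls, siIDT by little, and siNT was the lowest. The means were 156.3 ± 8.56 CPM (SD, n = 3) with USP17 siRNA and 133.2 ± 13.8 CPM (SD, n = 2) with control siRNA, a log2 fold change of 0.23 ± 0.09 (SE; adjusted p = 0.129, edgeR; 95% interval from 1.02-fold to 1.35-fold before any adjustment for the number of genes). Without siL2 it was 0.34 and without siNT it was 0.13, so its size rests on which control is used. On the TPM scale the groups overlapped, at 37.6, 41.9 and 44.2 TPM in siIDT, sino4 and siSMPLT, against 40.8 and 33.0 TPM in siL2 and siNT. Its RSEM length was 5912, 5479 and 5560 bases in siIDT, sino4 and siSMPLT, against 5154 and 5473 bases in siL2 and siNT. The lengths did not overlap, though sino4 and siNT nearly met. The log2 ratio of mean lengths was 0.09, the opposite sign to TCF7L2, and was not tested.

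BCL9L (chromosome 11, 118893875 to 118925608, minus strand), the close relative of BCL9, had 11.0, 12.8 and 12.8 CPM in siIDT, sino4 and siSMPLT, against 10.3 and 11.9 CPM in siL2 and siNT. The groups overlapped, with a log2 fold change of 0.13 ± 0.13 (SE; adjusted p = 0.524, edgeR; 95% interval from 0.900-fold to 1.34-fold). Its RSEM length varied widely without regard to group, at 5280 to 6879 bases with USP17 siRNA and 4528 to 6709 bases with control siRNA. Within each group its TPM was lower where that length was greater (2.55 to 2.93 TPM with USP17 siRNA and 2.02 to 3.55 TPM with control siRNA). CXCR5 and UPK2 overlap it on the opposite strand.

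PYGO2 (chromosome 1, 154957026 to 154963853, minus strand), whose PHD finger reads methylated histone H3 and binds BCL9, had 58.7, 61.0 and 59.9 CPM in siIDT, sino4 and siSMPLT, against 65.6 and 54.8 CPM in siL2 and siNT. All 3 USP17 siRNA libraries lay between the controls. The log2 fold change was -0.008 ± 0.09 (SE; adjusted p = 0.967, edgeR), with a 95% interval from 0.858-fold to 1.15-fold, and it was 0.13 without siL2 and -0.13 without siNT.

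**Figure D3:**
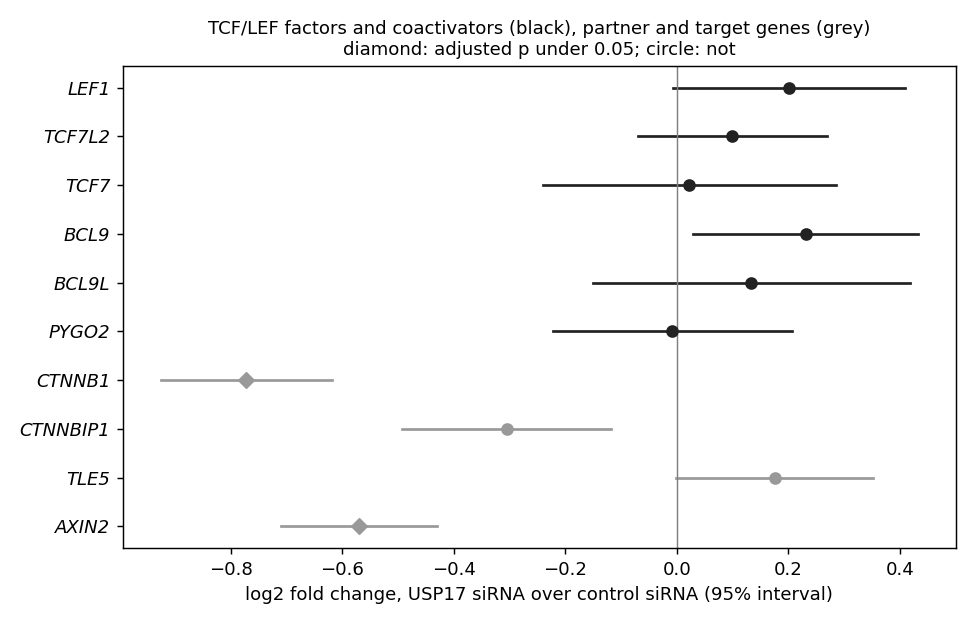
Log2 fold change (USP17 siRNA over control siRNA, 3 and 2 libraries) with its 95% interval for the 6 tested TCF/LEF and coactivator genes in black and 4 partner or target genes in grey, where diamonds passed an adjusted p of 0.05. The black points lie between -0.008 and 0.23, while CTNNB1 lies at -0.77 and AXIN2 at -0.57.

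The beta-catenin gene, in contrast to these partners, passed the test. CTNNB1 had 84.3, 84.8 and 84.4 TPM in siIDT, sino4 and siSMPLT, against 150 and 138 TPM in siL2 and siNT, and it fell by 0.77 on the log2 scale (adjusted p = 0.00215, edgeR). LEF1 TPM over CTNNB1 TPM was 4.49, 3.98 and 3.60 in siIDT, sino4 and siSMPLT, against 2.12 and 2.05 in siL2 and siNT. The ratio was 4.02 ± 0.446 (SD, n = 3) with USP17 siRNA and 2.085 ± 0.0488 (SD, n = 2) with control siRNA, without overlap. The exact permutation test (two-sided, on the log2 ratio) gave p = 0.1, the smallest that 3 against 2 libraries allow. The ratio of all 4 TCF/LEF factors to CTNNB1 was 4.15 to 5.02 with USP17 siRNA and 2.36 to 2.38 with control siRNA, and that of BCL9 to CTNNB1 was 0.446 to 0.523 with USP17 siRNA and 0.239 to 0.272 with control siRNA (exact permutation p = 0.1 each). None of the shares and ratios tested could reach a p below 0.1 with or without adjustment for their number. All 3 ratios share the CTNNB1 denominator, and LEF1 and BCL9 TPM overlapped between the groups, so the ratios restate the lower CTNNB1 level and are no separate result on its partners. They are ratios of mRNA and say nothing of the proteins.

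**Figure D4:**
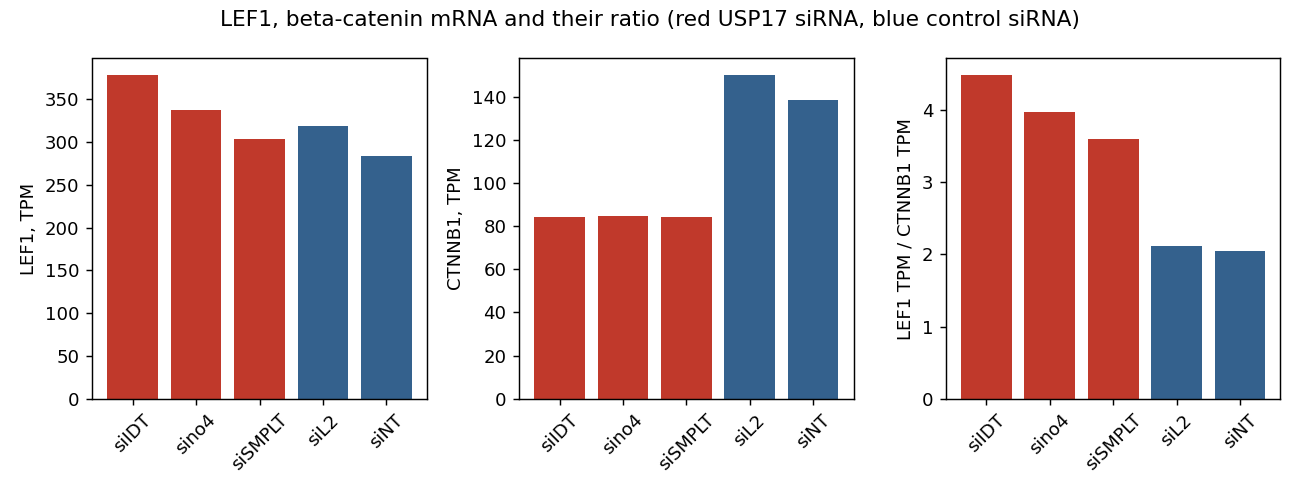
LEF1 and CTNNB1 levels (TPM) and their ratio in each library, with bars from 0, USP17 siRNA in red and control siRNA in blue. LEF1 overlaps between the groups, CTNNB1 is 84.3 to 84.8 TPM in the red libraries and 138 to 150 TPM in the blue ones, and the ratio is 3.60 to 4.49 in red and 2.05 to 2.12 in blue.

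Other coactivators, a list of 12 that includes CTNNB1, had 3 members higher and 2 lower, beside 4.64% higher and 5.82% lower over all genes tested, with a median log2 fold change of 0.08. MED12, of the Mediator kinase module, rose by 0.56 on the log2 scale (137 ± 4.69 CPM with USP17 siRNA and 93.0 ± 1.02 CPM with control siRNA; SD, n = 3 and 2; adjusted p = 0.00559, edgeR). PYGO1, the paralog of PYGO2, rose by 0.41 (108, 102 and 98.4 CPM in siIDT, sino4 and siSMPLT, against 72.5 and 81.7 CPM in siL2 and siNT; adjusted p = 0.0221, edgeR). EP300, a histone acetyltransferase that binds beta-catenin, rose by 0.36 (adjusted p = 0.0196, edgeR). RUVBL1, an ATPase also called Pontin and named here after its value was seen, fell by 0.31 (adjusted p = 0.0261, edgeR). By edgeR MED12 lost its call without sino4 (adjusted p = 0.0513), PYGO1 without siIDT (0.0842) or sino4 (0.109), and both EP300 (0.0575, 0.121 and 0.0602) and RUVBL1 (0.102, 0.145 and 0.0649) without siIDT, sino4 or siSMPLT. The list's calls numbered 1 to 8 when 1 library was left out, with 2 for siIDT, 1 for sino4, 3 for siSMPLT, 5 for siL2 and 8 for siNT. Over all genes the same fits called 349 (siIDT), 130 (sino4), 1041 (siSMPLT), 2430 (siL2) and 2633 (siNT).

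Of 13 corepressors and inhibitors tested, edgeR called 0, with a median log2 fold change of -0.01. At an unadjusted p under 0.05 there were 3 of 13, DESeq2's Wald test called 2 and limma-voom 0, and edgeR called 1 without siL2 and 3 without siNT. The 3 at an unadjusted p, the 2 by the Wald test and the 0 by limma-voom are each a smaller share of the 13 than those tests gave over all genes. CTNNBIP1, which encodes ICAT, an inhibitor that blocks beta-catenin from TCF, had 25.4, 26.1 and 26.8 CPM in siIDT, sino4 and siSMPLT, against 32.6 and 31.9 CPM in siL2 and siNT. All 3 USP17 siRNA libraries lay below both controls, and the log2 fold change of -0.31 ± 0.08 (SE) did not pass in edgeR (adjusted p = 0.0508). Over the alternatives its adjusted p ran between 0.0239 (DESeq2's Wald test) and 0.213 (edgeR without sino4). In edgeR it passed also with RSEM counts (0.0477), with DESeq2's size factors (0.0486) and with at least 1 CPM in 2 libraries (0.0458). In edgeR it did not pass with the unstranded column (0.0533), with no filter (0.101), or without siIDT (0.163) or siSMPLT (0.0958). Nor did it with limma-voom (0.0531) or limma on TPM (0.146). With 1 control left, its log2 fold change was -0.29 without siL2 and -0.32 without siNT. TLE5, a short Groucho relative that lacks the repressor's WD repeats, had 174, 170.3 and 155 CPM in siIDT, sino4 and siSMPLT, against 145 and 149.9 CPM in siL2 and siNT (log2 fold change 0.18 ± 0.08, SE; adjusted p = 0.176, edgeR). Of 9 enzymes that modify TCF/LEF proteins or their corepressors, edgeR called 0, with 1 at an unadjusted p under 0.05, 1 by DESeq2's Wald test, 0 by limma-voom and 2 by edgeR without siNT; their median was 0.07.

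Of 24 TCF/LEF target genes, 21 could be tested, and 7 were lower and 1 higher, with a median log2 fold change of -0.31. Over all genes tested 5.82% were lower and 4.64% higher, and the median was 0.005. This list was written with earlier results of these libraries known and its direction is not independent evidence. TNFRSF19, a TNF receptor family member, had 43.8, 45.4 and 49.99 CPM in siIDT, sino4 and siSMPLT, against 105 and 123 CPM in siL2 and siNT. AXIN2, the feedback inhibitor, had 231 to 235 CPM with USP17 siRNA and 342 to 348 CPM with control siRNA. FGF20, a secreted growth factor, had 6, 6 and 2 reads in siIDT, sino4 and siSMPLT, against 42 and 46 reads in siL2 and siNT. The 3 genes kept their edgeR call when any 1 library was left out, and so did CTNNB1. NKD1, which binds Dishevelled, fell by 0.61, and LGR5, ZNRF3 and PROX1, named after their values were seen, were the others that fell. SOX4, an HMG box factor also named after its value was seen, rose by 0.42. By edgeR all 5 lost their call without siIDT (adjusted p: NKD1 0.0611, LGR5 0.0807, ZNRF3 0.0841, PROX1 0.13, SOX4 0.0707). They also lost it without sino4 (adjusted p: NKD1 0.084, LGR5 0.097, ZNRF3 0.123, PROX1 0.148, SOX4 0.0766). PROX1 had few reads, at 32, 44 and 64 in siIDT, sino4 and siSMPLT, against 87 and 178 in siL2 and siNT. It did not pass in edgeR with RSEM counts (adjusted p = 0.0519) or in limma-voom (0.0512). Its log2 fold change was -1.80 without siL2 and -0.81 without siNT. In limma on log2(TPM + 1) none of the 5 passed. With 1 USP17 siRNA library left out the list had 3 calls (siIDT), 3 (sino4) and 9 (siSMPLT), beside 349, 130 and 1041 over all genes.

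**Figure D5:**
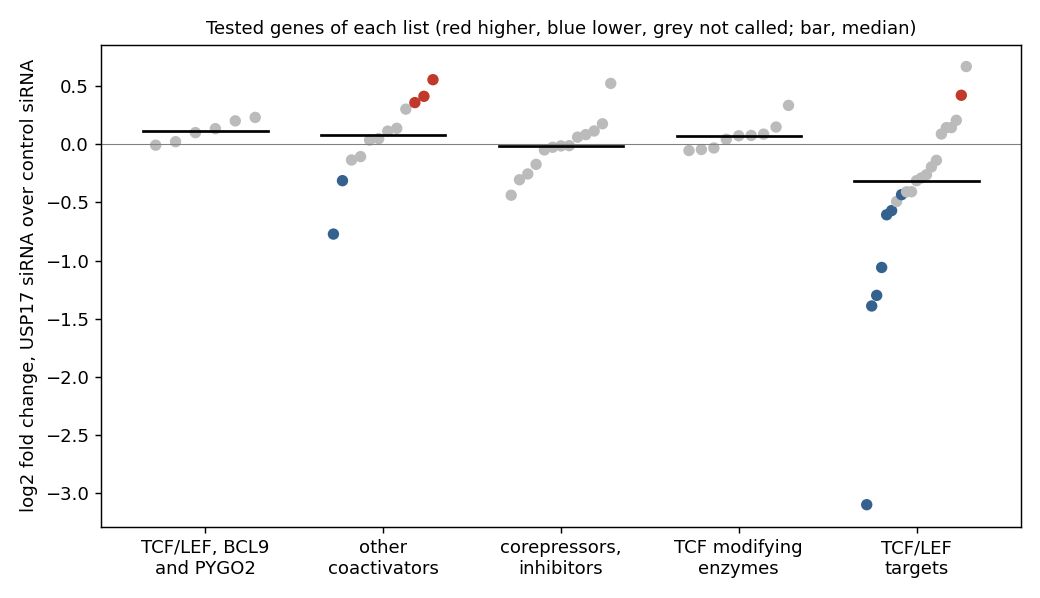
Log2 fold change (USP17 siRNA over control siRNA) of each tested gene by list, with genes called higher in red, called lower in blue and not called in grey, and a bar at each list's median. The TCF/LEF, BCL9 and PYGO2 genes hold no called gene and have a median of 0.12, while the target genes have 7 in blue, 1 in red and a median of -0.31. Over all genes tested 5.82% were lower and 4.64% higher.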

How the data were processed

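Per the labels' protocols, poly(A) RNA was made into libraries with the KAPA RNA HyperPrep kit. Per the submitters' processing notes, bcl2fastq 2.20, STAR 2.7.1a and RSEM 1.3.2 were used on GRCh38. Neither strand setting nor annotation release is stated. The authors deposited, for each library, gene read counts by strand and a table from RSEM with expected counts (rounded here), TPM and a weighted transcript length, used here in place of the planned effective length, whose offset differs by library. Reads on a gene's own strand outnumbered those on the other 18.7 to 19.9 times, and the main test used only the own-strand column. Rows that name no gene held 22.8% to 24.4% of reads and were left out.

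Since the series names siNT and L2 as controls, siIDT, sino4 and siSMPLT were assigned to USP17 by elimination. Counts were tested in R 4.3.3 with edgeR 4.0.16 (filterByExpr with a minimum count of 10 and total of 15, TMM, quasi-likelihood F test). The method was also run on counts simulated from its own fit as independent libraries, which cannot show how it behaves on these siRNAs. Alternatives used DESeq2 1.42.0, limma 3.58.1, other filters, RSEM counts, the unstranded column and leaving out each library. Symbols matched 42023 identifiers; coordinates are from GENCODE 29. No 2 libraries were alike within sampling noise (chi-square per degree of freedom 6.04 to 12.0 among USP17 siRNA libraries and 29.5 between the controls). Pairs across the groups gave 30.9 (siSMPLT and siNT) to 51.3 (siIDT and siL2), so the lowest stood close to the value between the controls. Intervals cover the spread between libraries, and the limit of 3 reads covers counting error only.

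The genes and lists were chosen with earlier results of these data known. Named were all 7 genes, CTNNB1, AXIN2, TLE5, CTNNBIP1 and LEF1-AS1 whatever their values, and up to 4 called genes per list by smallest p. The 3 genes closest in pattern to each called TCF/LEF or coactivator gene were to be named too, but no such gene was called.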

Additional observations from a re-analysis of the deposited data

How the results depend on the processing

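No paired analysis was possible because the labels give no replicate numbers that the groups share. The 6 tested TCF/LEF and coactivator genes were called in no alternative that kept both controls. When 1 library was left out, log2 fold changes ran from 0.12 to 0.26 for LEF1, 0.08 to 0.12 for TCF7L2, -0.15 to 0.21 for TCF7, 0.13 to 0.34 for BCL9, 0.03 to 0.24 for BCL9L and -0.13 to 0.13 for PYGO2. The sign turned for TCF7 without sino4 (-0.02) and without siL2 (-0.15), and for PYGO2 without siIDT (0.007) and without siL2 (0.13). TCF7L1, too low for the count filter, had -0.26 with no filter, -0.16 with the unstranded column and -0.89 without siL2, none of them past the threshold.

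Leaving out 1 library gave 130 to 2633 called genes in all (50 to 1384 higher, 80 to 1425 lower), 1 to 8 coactivators, 0 to 3 corepressors, 0 to 2 TCF-modifying enzymes and 3 to 12 targets. With 1 control left, its spread is taken to equal that of the USP17 siRNA libraries. An adjusted p of 0.10 gave 3074 genes (1460 higher, 1614 lower), 2 corepressors and 1 modifying enzyme. limma on log2(TPM + 1) gave 347 genes (136 higher, 211 lower), and on log2(TPM + 0.1) 278 (112 and 166), with 2 coactivators and 3 targets in both. Corepressor calls were 1 with DESeq2's size factors, with at least 1 CPM in 2 libraries and with RSEM counts, and 2 with DESeq2's Wald test, which also gave 1 modifying enzyme. Fewer libraries or the looser threshold enter by construction in those settings; for the others the cause was not tested.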
